A study of Mus musculus with 12 samples.

Results

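The retinoid receptors and binding proteins are taken here as 9 genes selected by name from the 57010 genes of the table: the retinoic acid (RA) receptors Rara, Rarb and Rarg, the retinoid X receptors Rxra, Rxrb and Rxrg, the cellular RA-binding proteins Crabp1 and Crabp2, and the retinol uptake receptor Stra6. All 9 were among the 16502 genes that passed the filter on low counts. They were measured by bulk RNA-Seq in NE-4C cells, a mouse neural progenitor line from embryonic brain that grows without limit because it lacks p53. The 4 groups of 3 libraries were wild-type cells left uninduced (WT NO), wild-type cells given RA (WT RA), and Faf2 knockout cells without (KO NO) and with RA (KO RA). RA was all-trans RA at 1 µM for 24 h, after which cells stayed in medium without it until collection on day 3, whereas NO cells were collected with no treatment. Induction and time in culture therefore cannot be told apart. The KO is 1 CRISPR line grown from a picked colony, so genotype and clone cannot be told apart either. The libraries came from independent passages.

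RA is made inside cells from retinol, which Stra6 carries across the membrane. Crabp2 hands RA to the receptors in the nucleus, and Crabp1 binds RA in the cytosol and is linked to its breakdown. A RAR pairs with a RXR on DNA at direct repeats of a short motif, where the pair holds corepressors without RA and recruits coactivators with it. The pathway patterns the hindbrain and spinal cord of the embryo and drives neural progenitors in culture towards neurons. Rarb, Crabp2, Stra6 and the RA-degrading enzyme Cyp26a1 are well-known targets of the pathway itself.

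Library totals ran from 17370069 to 30738717 counts. The library KO RA 3 stood apart from the other 11. Its TMM scaling factor was 0.394 against 0.872 to 1.28 elsewhere, its 100 most abundant genes took 62.5% of counts against 37.1 to 50.4%, and mitochondrial genes took 23.5% against 9.10 to 17.7%. It was the lowest of its group for 8 of the 9 genes, so most log2 fold changes of the 9 genes that use it are given without it as well. Faf2 itself measured 35.1 to 50.01 CPM (counts scaled to a common library size with TMM factors) over the 6 WT libraries, against 21.0 to 25.4 CPM for uninduced KO cells and 18.7 to 36.1 CPM for induced KO cells. A count per gene does not separate transcripts with and without the deleted exon. The 7 neural progenitor markers summed to 180.8 to 391.7 CPM, with none at the floor of 3 counts in a whole group. The pluripotency gene Pou5f1 stood far above them, at a mean of 1852 CPM before and 2415 CPM after RA in WT cells. Its means were 1511 and 985 CPM in KO cells. Of the 4 pluripotency markers looked at, 3 were tested, and Zfp42 was at the floor in all 4 groups. The median log2 fold change of those tested was 0.38 to 0.49 in the RA and genotype comparisons, so Pou5f1 did not follow it in the KO. Bulk RNA cannot tell fewer cells of a type from less RNA per cell.

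The promoter of Rarb carries the classical RA response element, a direct repeat of the motif that RAR and RXR bind. RefSeq promoter windows of 300 bases (250 before to 50 after the start, GRCm38.p6) were at hand for 8 of the 9 genes, and Crabp2 had no window in the table used. They were searched on both strands for direct repeats of the motif AGGTCA or any of 3 variants of it, namely AGTTCA, then GGGTCA, and lastly GGTTCA, with 1, 2 or 5 bases between. Rarb was the 1 gene of the 8 with such a repeat, with 5 bases between. It is shown because Rarb was the one receptor gene whose RA libraries lay above its NO libraries in both genotypes, with the motif copies in capitals:

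Rarb: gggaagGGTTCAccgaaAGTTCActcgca

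The stretch is chr14:16575507-16575535 on the minus strand of GRCm38.p6, and the repeat itself runs from 53 to 37 bases before the RefSeq start. The same 29 bases were found once on chromosome 14 of GRCm39, at chr14:5894228-5894256 on the plus strand. There, 13 of the 21 annotated Rarb transcripts have an exon over it and 5 begin after it. Repeats with 5 bases between were found in 32 of 32851 windows (0.0974%), those with 1 base in 73 (0.222%) and those with 2 bases in 88 (0.268%). With AGGTCA and AGTTCA alone, no window of the 8 genes held a repeat. The search covered these letters in these windows only.

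The RA receptors differed widely in level. Values of the table already account for gene length, so the CPM values of different genes can be compared. Rara (chr11:98818612-98865768, plus strand, GRCm39), the receptor present in most tissues, was the most abundant RAR in every library. It measured 49.8, 38.6 and 34.6 CPM in WT NO 1, 2 and 3, then 43.7, 39.8 and 37.6 CPM in WT RA. In the KO it measured 32.5, 29.7 and 33.8 CPM without RA, then 43.9, 43.0 and 12.1 CPM with RA. The lowest value was that of KO RA 3, and the other 2 KO RA libraries were above all KO NO libraries. Rara made up 79.4% ± 3.2 (SD, n = 3) of the summed RAR level of uninduced WT cells and 80.0% ± 2.1 of that after RA, while the KO shares were 72.8% ± 2.1 and 76.8% ± 10.3. Its log2 fold change with RA was −0.02 (SE 0.38) in WT and 0.05 (SE 0.38) in KO, and the latter was 0.43 without KO RA 3.

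Rarb (chr14:5650540-6041094, plus strand, overlapped on the other strand by Top2b) was the rarest RAR before induction. Whether reads were counted by strand is not given in the sources used here, so reads from such a partner cannot be told apart. Its level was 0.599, 0.407 and 1.04 CPM in WT NO and 1.68, 3.98 and 2.29 CPM in WT RA. The WT NO values came from 11.3 to 33.7 deposited counts per library. KO libraries were at 1.67, 1.10 and 1.40 CPM without RA and at 2.62, 4.19 and 5.05 CPM with RA. In each genotype, all 3 RA libraries were above all 3 NO libraries. Without TMM factors the groups were apart in the same way in both genotypes. The log2 fold change was 1.95 in WT (SE 0.47, adjusted p = 0.111) and 1.50 in KO (SE 0.46, adjusted p = 0.0824), and neither passed the threshold of an adjusted p under 0.05 by edgeR's quasi-likelihood test. Without KO RA 3 the adjusted p was 0.0241 in WT and 0.0915 in KO (log2 fold change 1.28), since all 12 libraries share 1 estimate of the spread. Rarb made up 1.38% ± 0.83 of the summed RAR level before and 5.30% ± 2.5 after RA in WT cells. The KO shares were 3.14% ± 0.56 before and 13.4% ± 12.01 after RA, the latter with 27.1% for KO RA 3.

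Rarg (chr15:102143373-102165952, minus strand), a receptor linked to early embryos and undifferentiated cells, ran the other way after RA in the KO. It measured 9.93, 9.15 and 12.8 CPM in KO NO and 6.14, 5.14 and 1.49 CPM in KO RA. The groups did not overlap, and KO RA 3 was again the lowest. The log2 fold change was −1.30 (SE 0.43, adjusted p = 0.106), and −0.93 without KO RA 3 (adjusted p = 0.0511). In WT the values were 14.2, 7.47 and 8.64 CPM without and 7.79, 6.11 and 8.36 CPM with RA, which overlapped (log2 fold change −0.44, SE 0.42). Without TMM factors the WT groups were apart as well, lower with RA.

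**Figure D1:**
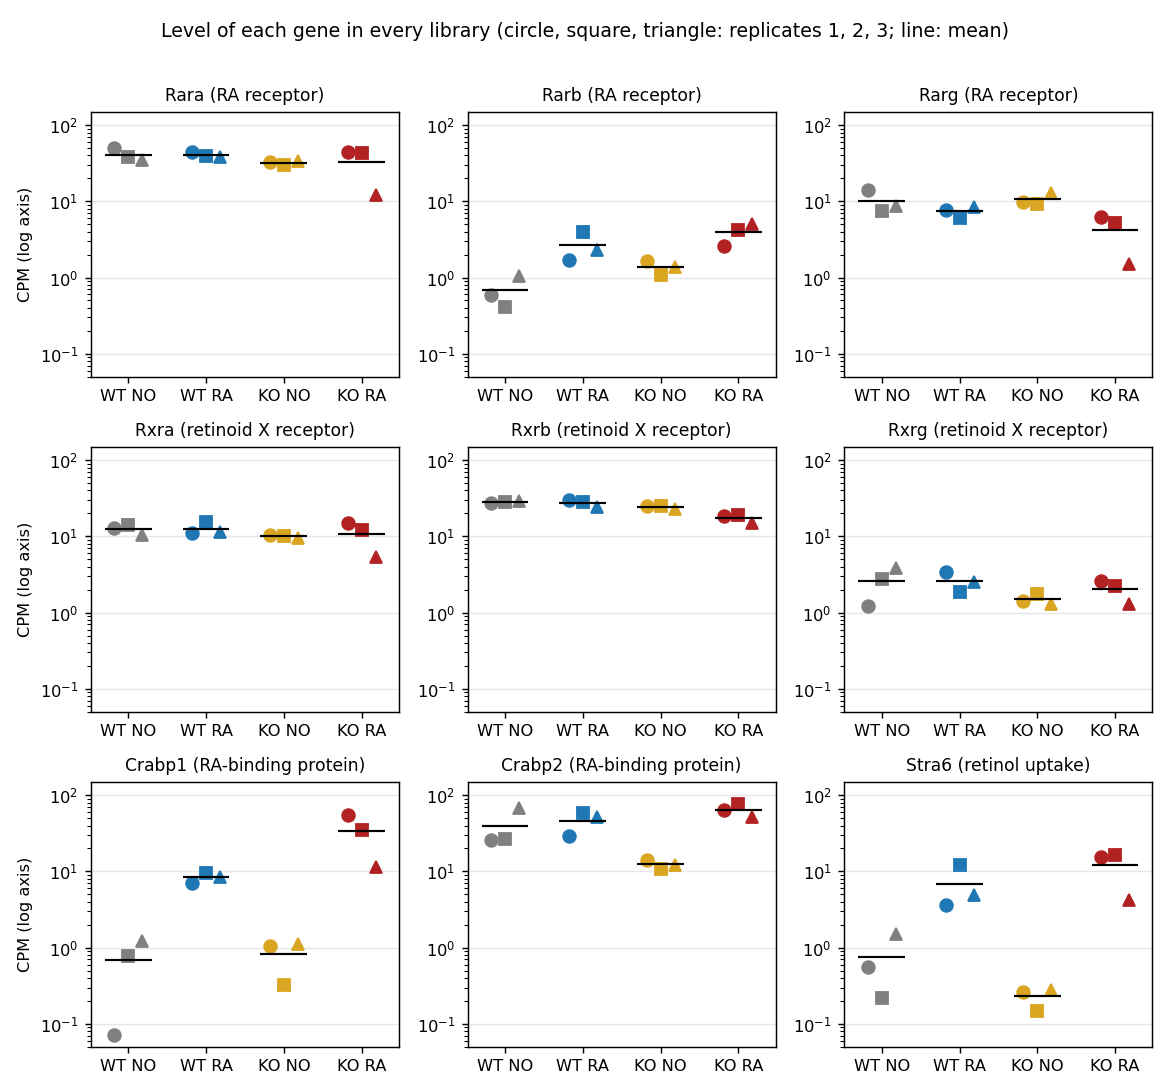
Level of each of the 9 genes in CPM on a log axis, per library (circle, square and triangle are replicates 1, 2 and 3) with the group mean as a line. The RA libraries lie above the NO libraries for Rarb, Crabp1 and Stra6 in both genotypes and for Crabp2 in the KO, whereas Rara and Rxra stay within a narrow band except for the low values of KO RA 3, and Rxrb is lowest in the 3 KO RA libraries.

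The RXR genes were dominated by Rxrb (chr17:34250759-34257376, plus strand), a partner for many nuclear receptors. It held 65.3% ± 2.4 of the summed RXR level before and 64.3% ± 2.7 after RA in WT cells, then 67.9% ± 0.20 before and 59.3% ± 8.9 after RA in KO cells. It measured 27.4, 27.8 and 29.2 CPM in WT NO and 30.1, 28.4 and 24.0 CPM in WT RA. Its KO values were 25.3, 24.8 and 23.1 CPM without RA and 18.7, 18.9 and 14.9 CPM with RA. Every KO RA library was thus below every library of the other 3 groups. The log2 fold change of KO RA against KO NO was −0.48 (SE 0.18, adjusted p = 0.141; −0.39 without KO RA 3, adjusted p = 0.0664) and that of WT RA against WT NO −0.03 (SE 0.18, adjusted p = 0.971).

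Rxra (chr2:27566452-27653330, plus strand), the RXR needed for heart and eye development, ranged from 9.58 to 15.4 CPM in the 11 libraries other than KO RA 3, where it was 5.35 CPM. Its share of the RXR level was 28.8% ± 4.0 before and 29.6% ± 4.3 after RA for WT, and 28.0% ± 0.35 and 34.1% ± 8.3 for KO cells. Rxrg (chr1:167425673-167467193, plus strand), the RXR of more restricted tissues such as muscle and parts of the brain, was rare, at 1.23 to 3.81 CPM. Its 3 WT NO libraries were at 1.23, 2.74 and 3.81 CPM and covered every value of the other groups. For neither gene did the RA comparison pass the test in either genotype. The log2 fold change was 0.03 (SE 0.32) in WT and 0.10 (SE 0.32) in KO for Rxra, and −7.8e-05 (SE 0.43) and 0.47 (SE 0.45) for Rxrg. Without KO RA 3 the KO values were 0.40 for Rxra and 0.69 for Rxrg. The summed RXR level per summed RAR level was 0.642 to 0.983 before and 0.786 to 0.916 after RA in WT cells. For KO cells it was 0.707 to 0.919 before and 0.633 to 1.15 after RA, with the highest value for KO RA 3.

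**Figure D2:**
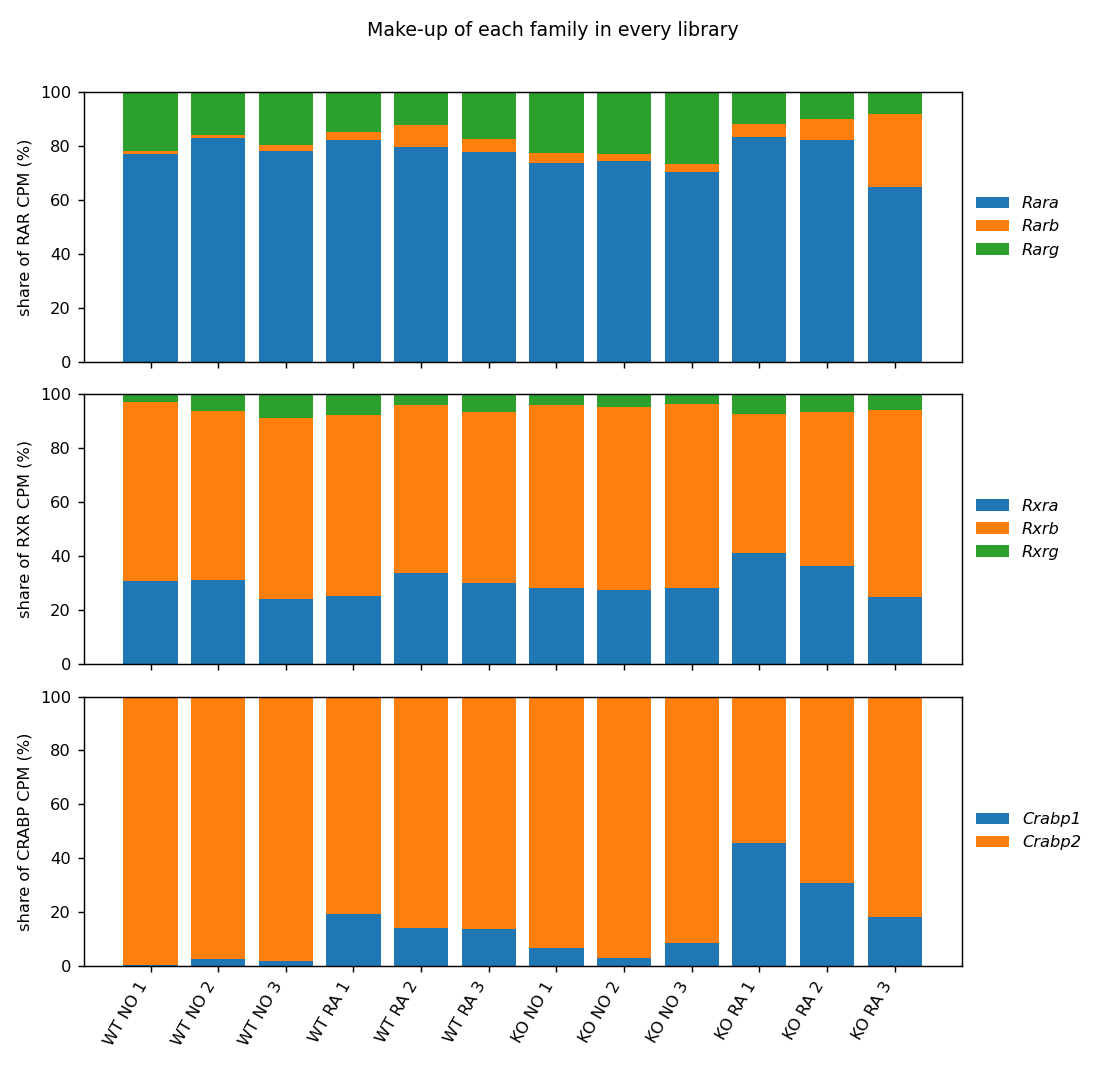
Share in percent of each gene in the summed CPM of its family (RAR, RXR and CRABP) in each of the 12 libraries. Rara and Rxrb hold most of their families throughout, the Rarb share is greatest in KO RA 3 (27.1%), and the Crabp1 share rises from at most 8.44% in NO libraries to at least 13.9% in RA libraries.

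The RA-binding proteins and Stra6 held the widest range of levels. Crabp1 (chr9:54671171-54680403, plus strand) was nearly silent before induction. It measured 0.0704, 0.776 and 1.22 CPM in WT NO, where the first value came from 2.28 deposited counts, and 7.07, 9.55 and 8.36 CPM in WT RA. In the KO it measured 1.05, 0.326 and 1.12 CPM without RA, then 54.6, 34.5 and 11.4 CPM with RA. RA libraries were all above NO libraries in both genotypes, and all KO RA libraries were above all WT RA libraries. Crabp1 rose in the KO by 5.32 on the log2 scale (SE 0.83, adjusted p = 0.00625), or 40.0-fold, and by 5.72 without KO RA 3 (adjusted p = 0.000625). In WT the log2 fold change was 3.57 (SE 0.79, adjusted p = 0.0850), which did not pass, and 0.00760 was the adjusted p without KO RA 3.

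Crabp2 (chr3:87855973-87860683, plus strand) was already abundant in WT NO, next to Rara, at 25.6, 26.9 and 67.1 CPM. After RA the WT libraries were at 29.3, 58.3 and 51.7 CPM, within the range of WT NO. KO cells held 14.2, 10.8 and 12.1 CPM without RA and 64.7, 77.1 and 51.5 CPM with RA. KO NO was thus below every other library and KO RA above every KO NO library. Crabp2 rose with RA in the KO by 2.38 on the log2 scale (SE 0.40, adjusted p = 0.00873), or 5.21-fold, and by 2.51 without KO RA 3 (adjusted p = 0.00333). The adjusted p was 0.0588 without KO NO 2 and 0.0518 without KO NO 3, with fold changes of 2.28 and 2.37 on the log2 scale. In WT the log2 fold change was 0.22 (SE 0.38, adjusted p = 0.892), and 0.83 without WT NO 3.

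Stra6 (chr9:57970967-58063543, plus strand, overlapped on the other strand by Ccdc33 and Islr) measured 0.563, 0.222 and 1.496 CPM in WT NO and 3.65, 12.03 and 4.87 CPM in WT RA. KO cells measured 0.264, 0.148 and 0.279 CPM without RA and 15.4, 16.4 and 4.26 CPM with RA. RA libraries were above NO libraries in both genotypes, and 3 of the lowest 4 values of all 12 libraries were those of KO NO. Stra6 rose in the KO by 5.68 on the log2 scale (SE 0.83, adjusted p = 0.00474), or 51.3-fold, and by 6.07 without KO RA 3 (adjusted p = 0.000808). In WT the log2 fold change was 3.15 (SE 0.73, adjusted p = 0.0992), with an adjusted p of 0.0127 without KO RA 3 and a log2 fold change of 4.10 without WT NO 3 and 2.47 without WT RA 2. The KO NO level rests on 5.28 to 10.3 deposited counts per library.

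Over the 9 genes, RA in the KO gave 3 called genes, all higher (Crabp1, Crabp2 and Stra6), where 3.89% of all tested genes were called higher, 1.59% lower and 5.48% in either direction. Of the 9, 6 had an unadjusted p under 0.05, against 25.2% of all tested genes. Groups were apart for 4 genes with RA higher and for 2 (Rarg and Rxrb) with RA lower, against 13.2% and 17.0% of all tested genes. DESeq2 and limma-voom with library weights each called 6 genes, which added Rarb, Rarg and Rxrb. Over all tested genes they called 2632 and 4534. The median log2 fold change was 0.47 over the 9 genes and 0.11 over all tested genes. With DESeq2's size factors the median of all tested genes was 0.19. With TMM factors and without KO RA 3 it was −0.02.

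In WT, edgeR called 0 of the 9 genes, where 0.406% of all tested genes were called (0.321% higher and 0.0848% lower), and 3 (Rarb, Crabp1 and Stra6) had an unadjusted p under 0.05, against 12.5% of all. The same 3 genes were apart with RA higher, against 15.1% of all tested genes, and none was apart with RA lower (14.0% of all). Without TMM factors, Rara and Rarg were apart in WT with RA lower. DESeq2 called Rarb, Crabp1 and Stra6 (adjusted p 0.00551, 0.000146 and 0.000610), and limma-voom called 3 as well. These tools called 924 and 3576 of all tested genes. The median log2 fold change was 0.03 over the 9 genes and −0.0084 over all tested genes.

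**Figure D3:**
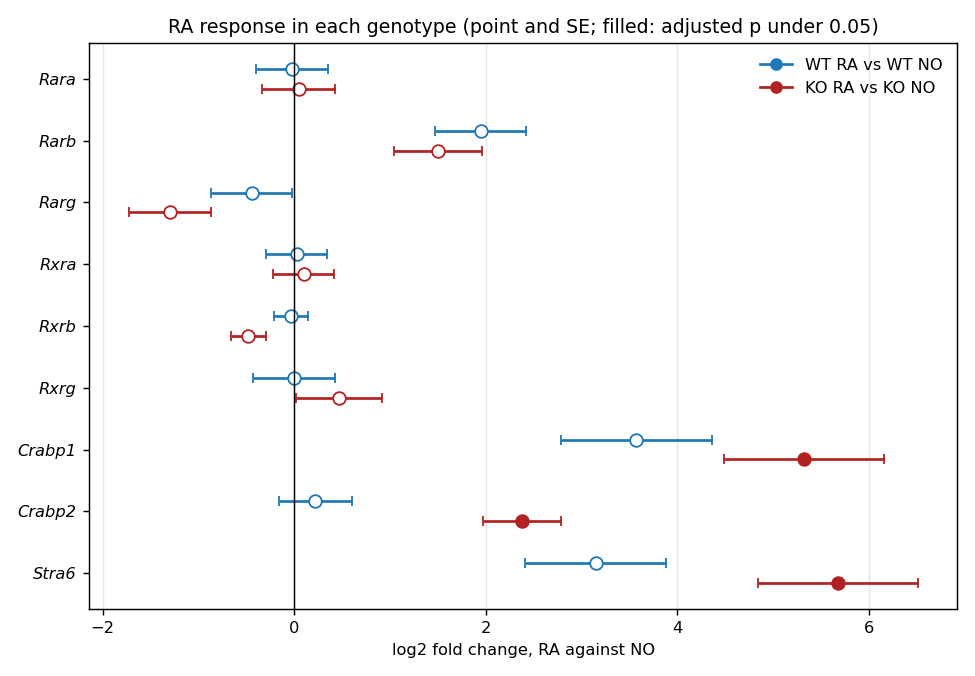
Log2 fold change with RA against NO for each gene, WT in blue and KO in red, with its SE from the edgeR fit; filled points passed an adjusted p under 0.05. Crabp1, Crabp2 and Stra6 passed in the KO, at 5.32, 2.38 and 5.68, while Rara and Rxra lie near 0 in both genotypes.

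Whether the RA response differed between genotypes was tested as an interaction in the same fit. edgeR called 0 of the 9 genes and 0 of all tested genes (0.0%), and 8.62% of all tested genes had an unadjusted p under 0.05. The response of Crabp2 was 2.16 greater in the KO on the log2 scale (SE 0.55, adjusted p = 0.327), and 1.56 greater without WT NO 3. DESeq2 (adjusted p = 0.0104) and limma-voom (adjusted p = 0.0116) called this gene and no other of the 9. Over all tested genes they called 309 and 1001. The difference was 2.53 for Stra6 (SE 1.0, adjusted p = 0.529) and 1.75 for Crabp1 (SE 1.0, adjusted p = 0.654). Without KO RA 3 the differences were 2.29 for Crabp2 (adjusted p = 0.0676), 2.93 for Stra6 (adjusted p = 0.124) and 2.15 for Crabp1 (adjusted p = 0.209). These 3 were thus higher with RA in the KO by the test, but a larger response than in WT was not shown by edgeR. For the other 6 genes the difference lay between −0.85 (Rarg) and 0.47 (Rxrg), and between −0.66 (Rarb) and 0.68 (Rxrg) without KO RA 3. Crabp2 and Stra6 were the 2 genes with an unadjusted p under 0.05.

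Without RA, Crabp2 was the gene that separated the genotypes most. All 3 KO NO libraries (10.8 to 14.2 CPM) were below all 3 WT NO libraries (25.6 to 67.1 CPM), a log2 fold change of −1.69 (SE 0.39, adjusted p = 0.0760). This did not pass by edgeR, and passed by DESeq2 (adjusted p = 0.00136) and without KO RA 3 (adjusted p = 0.0222). WT NO 3 held the highest Crabp2 value of its group, as it did for 6 of the 9 genes, and without it the log2 fold change was −1.08. Stra6 had a like log2 fold change, −1.72 (SE 0.77, adjusted p = 0.405), but its groups overlapped and the value was −0.76 without WT NO 3. Rarb was higher in KO NO than in WT NO in all libraries (1.10 to 1.67 against 0.407 to 1.04 CPM, log2 fold change 1.02, SE 0.46, adjusted p = 0.410), and overlapped without TMM factors.

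Among the 9 genes, edgeR called 0 between KO NO and WT NO, where 1.14% of all tested genes were called (0.788% higher and 0.351% lower), and 3 (Rarb, Crabp2 and Stra6) had an unadjusted p under 0.05, against 12.2% of all. DESeq2 called 1 and limma-voom 2, against 1015 and 3575 of all tested genes. Groups were apart for 1 gene with KO higher and for 4 with KO lower (Rara, Rxra, Rxrb and Crabp2), against 15.5% and 15.2% of all tested genes. The log2 fold changes of the 3 receptor genes among these 4 were −0.36 for Rara (SE 0.38), −0.30 for Rxra (SE 0.32) and −0.21 for Rxrb (SE 0.18), and Rxrb overlapped without TMM factors. The median over the 9 genes was −0.30, and −0.02 over all tested genes.

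After RA, Crabp1 and Rxrb were the genes whose genotypes were apart. Crabp1 was at 11.4 to 54.6 CPM in KO RA and at 7.07 to 9.55 CPM in WT RA, a log2 fold change of 2.01 (SE 0.71, adjusted p = 0.195). Without KO RA 3 it was 2.41 (adjusted p = 0.0253), and without TMM factors the groups overlapped. Rxrb was at 14.9 to 18.9 CPM in KO RA and at 24.0 to 30.1 CPM in WT RA, a log2 fold change of −0.65 (SE 0.18, adjusted p = 0.108), and −0.56 without KO RA 3 (adjusted p = 0.0253). Its groups overlapped without TMM factors. Rxrb lies on chromosome 17, where the median log2 fold change of 794 tested genes was −0.46 in KO RA against WT RA and −0.47 in KO NO against WT NO, while it lay between −0.12 and 0.30 on the chromosomes of the other 8 genes. The part of this in the Rxrb value was not tested.

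edgeR called 0 of the 9 genes between KO RA and WT RA, where 1.24% of all tested genes were called (0.885% higher and 0.358% lower), and 2 (Rxrb and Crabp1) had an unadjusted p under 0.05, against 17.6% of all. DESeq2 called 1 (Rxrb) and limma-voom 3, against 1315 and 2993 of all tested genes. The 1 gene apart with KO higher and the 1 apart with KO lower stand against 9.97% and 10.9% of all tested genes. The median log2 fold change was −0.23 over the 9 genes and 0.09 over all tested genes. Crabp2, lower in KO NO, was at 51.5 to 77.1 CPM in KO RA and at 29.3 to 58.3 CPM in WT RA, which overlapped (log2 fold change 0.47, SE 0.38, adjusted p = 0.548), and 0.60 without KO RA 3 (adjusted p = 0.365). Stra6 overlapped as well, with a log2 fold change of 0.82 by edgeR (SE 0.66, adjusted p = 0.546). It was 1.21 without KO RA 3 (adjusted p = 0.221), and limma-voom called the gene (adjusted p = 0.00327).

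**Figure D4:**
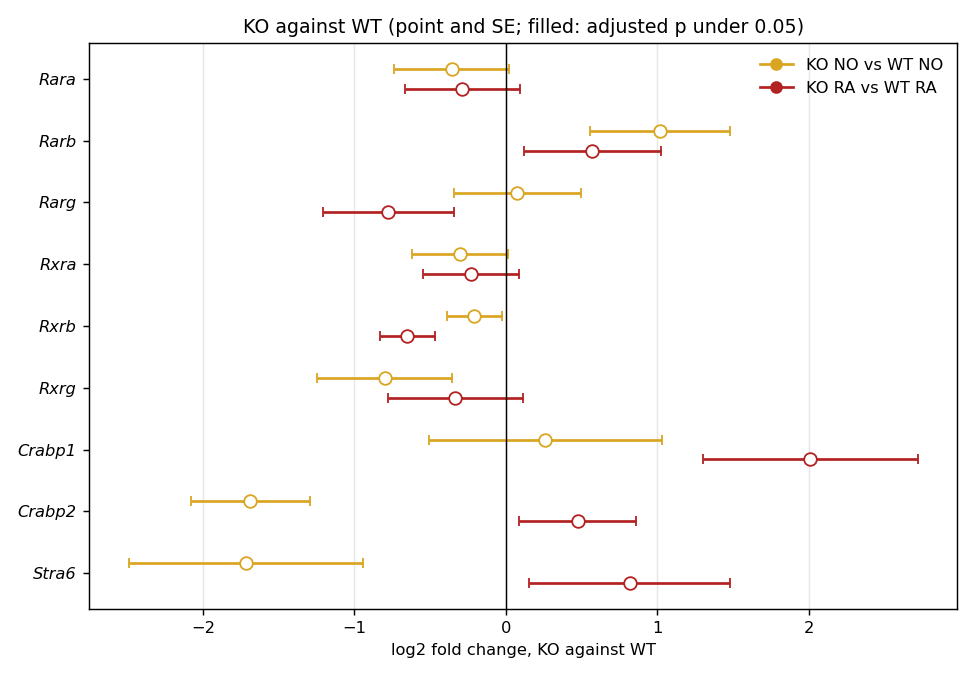
Log2 fold change of KO against WT for each gene, without RA in yellow and with RA in red, with its SE from the edgeR fit; no point passed an adjusted p under 0.05. Crabp2 lies at −1.69 without RA and at 0.47 with RA, and Stra6 at −1.72 and 0.82.

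Within the CRABP pair, Crabp1 took a larger part in every RA library than in any NO library. Crabp1 per Crabp2 was 0.00275, 0.0289 and 0.0182 in WT NO and 0.241, 0.164 and 0.162 in WT RA. The KO ratios were 0.0744, 0.0301 and 0.0922 without RA and 0.843, 0.447 and 0.221 with RA. All NO ratios thus lay below all RA ratios, and the ratio does not depend on the scaling between libraries. The share of Crabp1 in the pair was 1.62% ± 1.3 before and 15.8% ± 3.1 after RA in WT cells, against 6.09% ± 2.9 and 31.6% ± 13.8 in KO cells.

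The order of levels shifted accordingly. In WT NO it ran Rara (41.0 ± 7.9 CPM), Crabp2 (39.9 ± 23.6), Rxrb (28.2 ± 0.95), Rxra (12.4 ± 1.8), Rarg (10.1 ± 3.6), Rxrg (2.59 ± 1.3), Stra6 (0.760 ± 0.66), Crabp1 (0.689 ± 0.58) and Rarb (0.681 ± 0.32). Ranges over libraries were apart between Rxrb and Rxra and between Rarg and Rxrg, and overlapped between all other neighbours. In KO NO Crabp2 (12.4 ± 1.7 CPM) followed Rara (32.0 ± 2.1) and Rxrb (24.4 ± 1.1), apart from both of them, and Stra6 (0.230 ± 0.072) was last, apart from Crabp1 (0.832 ± 0.44).

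After RA, Crabp2 led in both genotypes. It was at 46.5 ± 15.2 CPM in WT RA and overlapped with Rara (40.4 ± 3.1). In KO RA it was at 64.4 ± 12.8 CPM, followed by Crabp1 (33.5 ± 21.6) and Rara (32.99 ± 18.1), and all neighbours overlapped in that group. Crabp1 was rank 8 in WT NO and rank 5 in WT RA, where its range (7.07 to 9.55 CPM) lay below that of Rxra and overlapped with that of Rarg.

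Of 11 other genes of the pathway that make and break down RA, 7 were tested. In WT, RA gave 1 higher and 0 lower, and in KO 2 higher and 2 lower. Of all tested genes, 0.321% were called higher with RA in WT, and 3.89% higher and 1.59% lower in KO. DESeq2 and limma-voom each called 2 of the list higher in WT, and 3 higher and 2 lower in KO. Cyp26a1, which degrades RA, was at 0.350 ± 0.048 CPM before and 1.99 ± 0.80 CPM after RA in WT cells, and at 0.941 ± 0.31 and 12.5 ± 2.9 CPM in KO cells. It rose with RA by 2.49 on the log2 scale in WT (SE 0.39, adjusted p = 0.0339) and by 3.72 in KO (SE 0.39, adjusted p = 0.000620). It was also higher in KO RA than in WT RA (log2 fold change 2.64, adjusted p = 0.00970), the 1 gene of this list called there by edgeR. DESeq2 and limma-voom each called 1 gene of the list higher and 1 lower there.

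Rdh10, which oxidises retinol in the first step of RA synthesis, was at 29.4 ± 13.1 CPM before and 44.3 ± 8.4 CPM after RA in WT cells, and at 9.35 ± 0.65 and 33.3 ± 5.1 CPM in KO cells. Uninduced KO cells held less of it than uninduced WT cells (log2 fold change −1.65, adjusted p = 0.0375), as measured for Crabp2 without a call, and it rose with RA in the KO by 1.83 (adjusted p = 0.0110). Rdh11, a retinal reductase, was higher in KO NO than in WT NO (1.40, adjusted p = 0.00934) and fell by 0.80 on the log2 scale with RA in the KO (adjusted p = 0.0413). Dhrs3, which turns retinal back into retinol, fell by 1.43 on the log2 scale with RA in the KO (adjusted p = 0.0256). Between KO NO and WT NO the list had 1 gene higher and 1 lower.

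Of 17 target genes of RA, 14 were tested. In WT, 3 were called higher and 0 lower, with a median log2 fold change of 1.21 over the list. They were Cyp26a1, Nr2f2 and Hoxb4. In the KO, 5 were called higher (Cyp26a1, Nr2f1, Nr2f2, Hoxb4 and Meis1) and 1 lower (Dhrs3), with a median of 1.21 as well. Nr2f2, an orphan receptor that binds direct repeats, rose by 5.87 in WT (adjusted p = 0.00999) and by 5.82 in KO (adjusted p = 0.00130), and its relative Nr2f1 rose by 6.67 in KO (adjusted p = 0.00560), all on the log2 scale. Meis1, a cofactor of Hox proteins, rose by 3.77 in KO (adjusted p = 0.00395). Hoxb4, a hindbrain and spinal cord patterning gene, was at the floor of 3 counts in both NO groups and was at least 10.9-fold higher with RA in WT and at least 4.55-fold higher in KO, with the floor taken per library. Between KO NO and WT NO, 0 were called by edgeR (6 had an unadjusted p under 0.05, of which 5 were higher in the KO). DESeq2 called 4 and limma-voom 5, against 1015 and 3575 of all tested genes. Between KO RA and WT RA, Cyp26a1 was the 1 gene called by edgeR. DESeq2 called 2 higher and 1 lower there and limma-voom 4 and 1, against 1315 and 2993 of all tested genes. With RA, these tools each called 5 higher in WT (924 and 3576 of all) and 7 higher and 1 lower in KO (2632 and 4534). edgeR called 0.321% of all tested genes higher with RA in WT, and 3.89% higher and 1.59% lower in KO. In the interaction edgeR called 0 of the list, and the other tools each 1 higher and 1 lower.

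Of the 6 orphan receptors of direct repeats, 1 was higher with RA in WT (Nr2f2), and 2 were higher and 1 lower in KO. The lower one was Nr6a1, a repressor of pluripotency genes, which fell by 1.47 on the log2 scale (adjusted p = 0.0224) from 34.6 ± 5.8 to 12.4 ± 4.9 CPM. These are edgeR calls, where 0.406% of all tested genes were called with RA in WT and 5.48% in KO. DESeq2 and limma-voom each called 2 higher and 1 lower in WT, and as many in KO. In the interaction, 0 of the 6 were called by edgeR, DESeq2 or limma-voom. Lists share genes, since Cyp26a1, Dhrs3, Nr2f1 and Nr2f2 are also counted as targets.

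Among the proteins that RAR and RXR work with, edgeR made no call. In all 5 comparisons, where 0.0% to 5.48% of all tested genes were called, 0 of the 8 corepressors, 0 of the 9 coactivators and 0 of the 7 tested RXR partner receptors (of 13) were called. In the 2 RA comparisons, 0 corepressors had an unadjusted p under 0.05, 1 coactivator did in the KO and 1 partner receptor in WT. In the other 3 comparisons, up to 2 corepressors and up to 2 partner receptors did, and 0 coactivators. DESeq2 called 1 corepressor (in the comparison of uninduced genotypes, lower in the KO) and 1 partner receptor (higher in KO RA than in WT RA). With limma-voom, up to 5 corepressors, 3 coactivators and 3 partner receptors were called in a comparison. Over all tested genes, DESeq2 called 309 to 2632 and limma-voom 1001 to 4534 in the 5 comparisons. The retinol carriers had 0 of 5 tested genes (of 10) called, and at most 1 with an unadjusted p under 0.05 in a comparison. DESeq2 called 1 of them with RA in KO and 1 between KO RA and WT RA, and limma-voom called up to 4 in a comparison. Their summed level was 276 to 712 CPM before and 740 to 936 CPM after RA in WT cells. In KO NO it was 183 to 295 CPM, and KO RA 1, 2 and 3 were at 278, 379 and 1369 CPM.

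Markers of other cells were also called higher with RA. Of all tested genes, edgeR called 0.321% higher with RA in WT and 3.89% in KO. The 6 mesenchymal markers were all tested, and with RA 2 were called higher in WT and 4 in KO. Their summed level was 43.4 to 96.6 CPM before and 94.1 to 264 CPM after RA in WT cells, and 45.1 to 46.5 and 199.9 to 1040 CPM in KO cells. The highest was that of KO RA 3, where Crabp1, Crabp2 and Stra6 were the lowest of their group. These sums use TMM factors, which were 0.394 for KO RA 3 and 1.28 for KO RA 1 (354 CPM). Which KO RA library is highest for these markers therefore depends on the scaling. Col1a1 was at the floor in KO NO and no other marker of the list was at the floor in a group. Of the 4 endothelial markers, 3 were tested and 2 were called higher with RA in the KO, at a summed level of 4.16 to 12.6 CPM with the lowest in KO RA 3. Of the 5 oligodendrocyte lineage markers, 3 were tested and 1 was called higher with RA in the KO. Their sum was 17.6, 23.6 and 2.68 CPM in KO RA 1, 2 and 3, against 2.76 to 3.222 CPM in KO NO and 4.20 to 8.54 CPM in WT RA, and Olig2 was at the floor in all 4 groups. Of the 4 haematopoietic markers, 1 was tested and was called higher with RA in the KO, at a summed level of 2.73 to 3.57 CPM. Of the 5 astroglial markers, 2 were tested and 0 were called, with Aqp4 and S100b at the floor in all 4 groups. Of 7 neural progenitor markers, 3 were called higher with RA in the KO, and of 8 neuron markers, 2 were. The part of any of these cell types in the levels of Crabp1, Crabp2 and Stra6 was not tested.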

How the data were processed

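Bulk mRNA-Seq of 12 NE-4C libraries was analysed. The authors ran nf-core/rnaseq (STAR, Salmon) on GRCm39 and deposited estimated counts per gene that were scaled from TPM. In 3851 genes above 0 in 1 library, these values fell with exonic length (Spearman correlation −0.685 across genes), so a count is not a number of fragments. Counts were rounded and fitted with edgeR 4.0.16 (R 4.3.3): TMM factors, filterByExpr with the 4 groups, 1 coefficient per group over all 12 libraries, quasi-likelihood test, Benjamini-Hochberg adjustment over 16502 genes, calls at an adjusted p under 0.05. DESeq2 1.42.0 and limma 3.58.1 were alternatives. The fits were run on simulated data with less spread than these libraries and no library like KO RA 3. That run checked the code and lends no weight to the results. Each SE of a log2 fold change is its absolute value divided by the square root of the F value of the test. Levels are CPM with TMM factors. The floor is 3 counts per library. The floor covers counting error only, while SDs and SEs hold the spread between libraries. Replicates are passages, so p-values measure the spread between passages of 1 line per genotype. The 9 genes and all lists were chosen with earlier results of these data known. Named were the 9 genes, list genes called in at least 1 of the 5 comparisons, and for each called gene of the 9 the 3 most like genes. Marker genes and a few results outside that rule were named after their values were seen. Positions came from GENCODE's GRCm39 annotation and promoters from RefSeq.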

Additional observations from a re-analysis of the deposited data

How the results depend on the processing

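Among the choices tried, limma-voom with library weights gave the highest count of called genes in each comparison. With DESeq2, limma-voom with library weights, no filter, only the groups compared, and the replicate block, all genes called were 924, 3576, 43, 545 and 10 for RA in WT (67 as reported), 2632, 4534, 583, 196 and 467 for RA in KO (904), 1015, 3575, 160, 718 and 56 for KO NO against WT NO (188), and 1315, 2993, 143, 16 and 59 for KO RA against WT RA (205). For the interaction, DESeq2 called 309 and limma-voom 1001 (0 as reported). Leaving out each library gave 0 to 1868, 194 to 2776, 40 to 1521, 19 to 1707 and 0 to 232 genes in this order, with each highest count without KO RA 3. Of the 9 genes, DESeq2 called 3, 6, 1, 1 and 1, and limma-voom 3, 6, 2, 3 and 1. The fit of only the groups compared called 1 with RA in WT (0 as reported). Leaving out each library gave 0 to 3, 2 to 3, 0 to 1, 0 to 2 and 0 to 0. DESeq2's size factors within edgeR changed none of these counts of the 9 genes.

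Libraries with the same replicate number were not more alike than others. Of 18 same-number pairs, 2 had deviations correlated above 0.1 (range −0.263 to 0.107), against 9 of 36 other pairs. Deviations from the mean of 3 libraries sum to 0, so this cannot decide whether passages were paired. The replicate block kept 3 calls with RA in KO and 0 in each other comparison among the 9 genes.

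No called value of the 9 genes changed sign. Of values not called, with limma-voom Rxra was −0.13 with RA in WT and 0.12 between KO RA and WT RA, Rara was 0.075 between KO RA and WT RA, and Rxrg was 0.55 with RA in WT. Rxrg was also 0.0061 with DESeq2, 0.0078 with its size factors and 0.0059 with no filter. With the replicate block, Rara was −0.066 with RA in KO and −0.062 in the interaction, where Rxra was −0.0070. Leaving out each library moved across 0 for RA in WT in Rara (−0.13 to 0.14), Rxra (−0.14 to 0.12), Rxrb (−0.11 to 0.054), Rxrg (−0.34 to 0.39) and Crabp2 (−0.025 to 0.83), and for RA in KO in Rara (−0.20 to 0.43) and Rxra (−0.17 to 0.40). It did so without RA between genotypes in Rarg (−0.10 to 0.40) and Crabp1 (−0.27 to 0.99), with RA in Rara (−0.53 to 0.10) and Rxra (−0.50 to 0.076), and in the interaction in Rara (−0.17 to 0.45) and Rxra (−0.20 to 0.37). The causes were not tested. With library totals alone, mean levels moved by over 1 SD for KO NO in Rara (37.0 CPM), Rxra (11.6), Rxrb (28.1) and Crabp2 (14.3) and for WT NO in Rxrb (31.1). Low counts limit Stra6 and Crabp1, at 2.28 to 48.6 deposited counts in NO libraries, and Rarb, at 11.3 to 33.7 in WT NO. Since such a count is not a number of fragments, the limit by depth cannot be ranked between genes.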

Other observations

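Over the 12 libraries, the genes whose log2 CPM was most like that of Crabp1 were Rtl5 (Pearson r = 0.981), Col1a2 (0.978) and Plpp3 (0.974). Col1a2, a collagen chain, is 1 of the mesenchymal markers. For Stra6 they were Rgma (0.968), Slc44a5 (0.968) and Tspan9 (0.967), and for Crabp2 they were Serpinf1 (0.953), Shisa2 (0.930) and 2310058D17Rik (0.922). Crabp1 and Stra6 themselves had r = 0.948, and 0.952 without KO RA 3. These values describe libraries in 4 groups that share scaling and depth, and carry no test.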
